A study of Mus musculus with 8 samples.

Results

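The mouse uncoupling protein genes Ucp1, Ucp2 and Ucp3 were followed across cultured adipocytes in which miR-182, miR-203 or miR-708 was blocked. These 3 genes were taken by symbol, and each had 1 row among the 18933 genes of each deposited table. Cells of the stromal vascular fraction, which holds the precursors of adipocytes, were transfected with a locked nucleic acid inhibitor of 1 microRNA at 100 nM or with a control, and all cultures then received the same induction with insulin, dexamethasone, 3-isobutyl-methylxanthine and rosiglitazone, an agonist of Pparg. RNA was harvested on day 4 of differentiation from 8 samples, 2 for each of the 3 inhibitors and 2 for the control. The fat depot, the genotype, strain and age of the animals and the composition of the control transfection are not given in the labels, and the series title names brown adipocytes. Whether the paired samples of a group were independent cultures is not stated, and the spread behind each deposited p-value could then be technical. Below, a run of 3 values follows the order miR-182, miR-203, miR-708.

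Expression is given as FPKM, fragments scaled to transcript length and library size, in 1 value per group that is taken as the authors' pool of both samples. No spread between samples, interval or test could be computed from these values, and the depth of each library is unknown. The words rise and fall are kept for genes with a q-value (a p-value adjusted for multiple testing) below 0.05 in the authors' deposited table. All 11 adipocyte markers examined were present in every group, from 12.5 FPKM for the lowest in the control to 37475 FPKM for Fabp4, the fatty acid carrier of fat cells. The control values were the same numbers in all 3 tables, so the 3 comparisons share their control and are not independent of each other.

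Uncoupling proteins are carriers of the inner mitochondrial membrane and belong to the Slc25 family. Ucp1 lets protons return to the mitochondrial matrix without making ATP when fatty acids activate it, and this releases the energy of respiration as heat in brown and beige fat. Ucp2 is found in many tissues, among them immune cells and fat, and Ucp3 mainly in skeletal muscle, heart and brown fat. Both are linked to fatty acid use and to limiting reactive oxygen species, and neither replaces Ucp1 in heat production.

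Ucp1 lies on chromosome 8 at chr8:83290352-83298452 of the mm10 build (plus strand, 6 exons, a protein of 307 amino acids). Ucp3 and Ucp2 are neighbours on chromosome 7, at chr7:100472990-100486432 and chr7:100493337-100502020, both on the plus strand and separated by 6905 bases. Ucp2 has 8 exons and codes for 309 amino acids, and Ucp3 has 7 exons and codes for 308. The annotated end of Ucp2 overlaps Dnajb13, which lies on the other strand, by 305 bases. Dnajb13 had 0.185 FPKM in control cells and at most 0.382 FPKM in any group, and was not tested by the authors. No source used here says whether counting used strand.

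The mature microRNAs that the inhibitors are directed against are shown because their seed, bases 2 to 8, sets which messengers they pair with. The labels name no arm, so both arms of each hairpin are given from RefSeq (GRCm38.p6), 5′ to 3′, with the seed in capitals.
mmu-miR-182-5p: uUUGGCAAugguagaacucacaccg
mmu-miR-182-3p: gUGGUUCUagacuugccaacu
mmu-miR-203-5p: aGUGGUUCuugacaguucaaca
mmu-miR-203-3p: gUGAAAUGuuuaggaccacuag
mmu-miR-708-5p: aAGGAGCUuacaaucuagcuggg
mmu-miR-708-3p: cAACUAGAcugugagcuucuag

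No 2 of these 6 arms share a seed. The 3′ untranslated regions of the transcripts used measure 481 bases for Ucp1, 2670 for Ucp2 and 1324 for Ucp3. None of the 3 holds the 7-base complement of either miR-182 seed, TTGCCAA for the 5p arm and AGAACCA for the 3p arm. Ucp1 holds 1 match, CATTTCA, to the seed of miR-203-3p, at base 418 of its untranslated region, and none to the other 5 arms. In the GENCODE transcript Ucp2 holds 1 match to each of miR-203-5p, miR-203-3p and miR-708-5p, at bases 1131, 1197 and 1646. All 3 lie beyond the RefSeq end of the gene, which leaves Ucp2 an untranslated region of 279 bases with no match, and which end these cells use was not measured. Ucp3 holds no match to any of the 6 seeds there. These are the matched stretches of Ucp1 and Ucp2, with the seed complement in capitals.
Ucp1, miR-203-3p: aaaaatattgcCATTTCAtcttatttatt
Ucp2, miR-203-3p: cccattttataCATTTCAgacatctccta
Ucp2, miR-203-5p: tcaaggagcagGAACCACcggtgaggtcc
Ucp2, miR-708-5p: gtgtgtccaatAGCTCCTtcactagacat

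The share of genes with such a match depends on length. Among 2647 genes with an untranslated region within 1.5 times the length of that of Ucp1, 5.33% held the miR-203-3p complement, and among 3109 genes near the length of Ucp2, 28.1% did. The corresponding shares at the length of Ucp2 were 13.6% for miR-203-5p and 24.8% for miR-708-5p. A match describes letters in the window only, and binding was not measured.

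Ucp1 fell with each of the 3 inhibitors. Its level was 203.03 FPKM in control cells, 67.7 FPKM under miR-182 inhibition, 159 FPKM under miR-203 inhibition and 146 FPKM under miR-708 inhibition. From highest to lowest, the order was control, miR-203, miR-708 and miR-182, with the miR-203 and miR-708 values close to each other and the miR-182 value apart from both. The authors' deposited table for miR-182 gave Ucp1 a 3.00-fold fall (log2 fold change -1.58, q = 0.00176, the smallest value the tables hold, which many genes share). For miR-708 the authors' deposited table gave a 1.39-fold fall (log2 fold change -0.48, q = 0.00327). For miR-203 the authors' deposited table gave a 1.28-fold fall (log2 fold change -0.36), with a q of 0.0493 that lies next to the threshold and is not below 0.01. The authors' tables called 6.23% of tested genes lower with the miR-182 inhibitor, 2.51% with miR-203 and 3.05% with miR-708, and 8.40%, 4.72% and 4.51% higher. Of Ucp1, Ucp2 and Ucp3, 1 was called lower in each comparison and none higher. In bulk RNA, fewer cells that express a gene and less RNA of it per cell cannot be told apart.

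**Figure D1:**
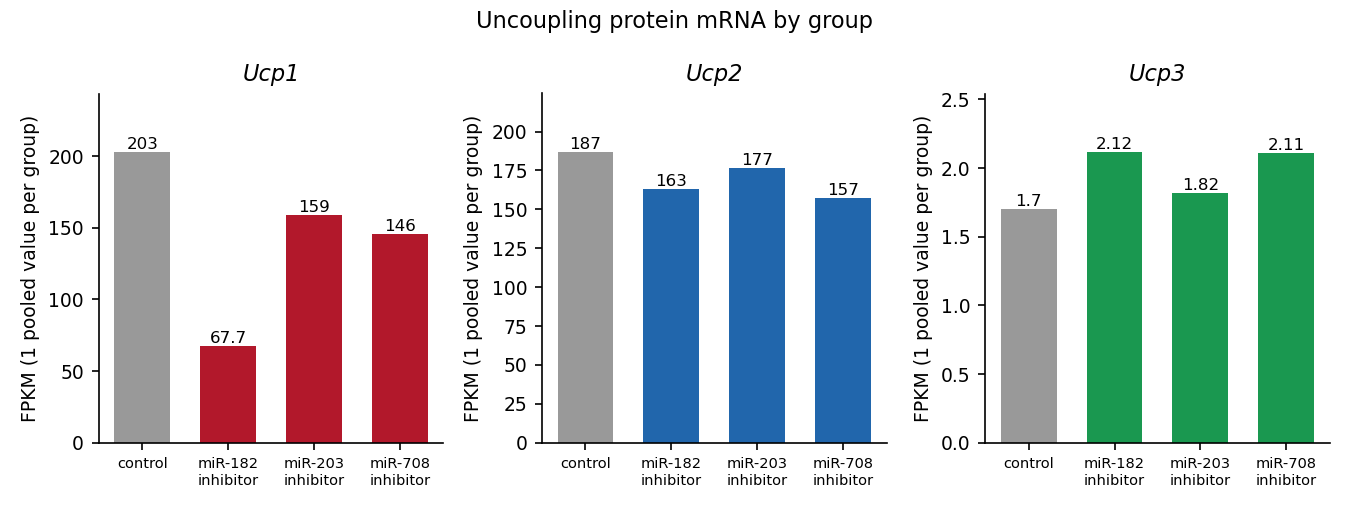
FPKM of Ucp1, Ucp2 and Ucp3 (y axes, linear from 0, a separate scale for each gene) in the control (grey) and with each inhibitor (coloured), 1 pooled value per group and so no error bars. Ucp1 is lowest with the miR-182 inhibitor, at 67.7 FPKM against 203.03 FPKM in the control, while Ucp2 lies between 157 and 187 FPKM and Ucp3 between 1.70 and 2.12 FPKM.

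The difference in Ucp1 among the inhibitors was widest for miR-182. Ucp1 was 2.34-fold higher with the miR-203 inhibitor than with the miR-182 inhibitor and 2.15-fold higher with the miR-708 inhibitor than with the miR-182 inhibitor. Between miR-203 and miR-708 it differed 1.09-fold. The deposited tables hold no test of one inhibitor against another, so these 3 differences were not tested.

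The fall of Ucp1 with the miR-182 inhibitor was among the larger ones of the table. On the log2(FPKM + 1) scale, which shrinks changes of weakly expressed genes, its ratio to the control was -1.57, the 45th lowest of 12846 measured genes, where measured means tested and at 1 FPKM or more in either group. Among 1177 measured genes with a control value of 100 FPKM or more, 11 had a lower ratio. For miR-708 the ratio of Ucp1 was -0.48 and 5.00% of measured genes lay lower, and for miR-203 it was -0.35 and 8.16% lay lower. The median over all measured genes was -0.014, -0.012 and -0.019.

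**Figure D2:**
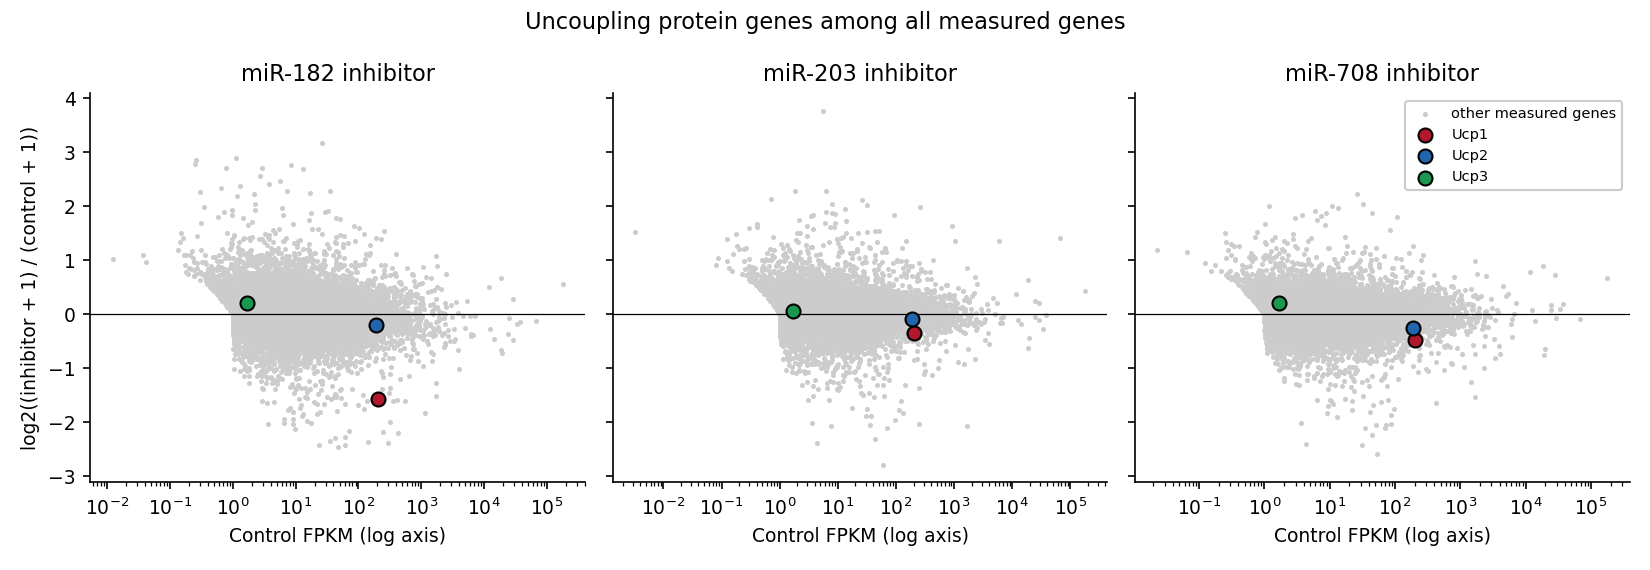
Each dot is a measured gene, with its control FPKM on a log axis (x) and log2((inhibitor + 1) / (control + 1)) on the y axis, in 1 panel per inhibitor. Ucp1 (red) lies at -1.57 in the miR-182 panel, below most genes of its level, and at -0.35 and -0.48 in the other panels, while Ucp2 (blue) and Ucp3 (green) lie inside the cloud.

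The level of Ucp1 placed it 616th from the highest of 18933 genes in the control, 776th with the miR-203 inhibitor, 833rd with the miR-708 inhibitor and 1688th with the miR-182 inhibitor. It thus stayed above 91.1% of genes where it was lowest. Among the 483 other tested genes between 135 and 305 FPKM in the control, a range of 1.5-fold to either side of Ucp1, the authors' deposited tables called 82 with miR-182, 28 with miR-203 and 40 with miR-708. With miR-203 the smallest change called among these other genes was 1.29-fold, above the 1.28-fold of Ucp1. A lower ratio than that of Ucp1 was held by 3 of these 483 genes with miR-182, 26 with miR-203 and 17 with miR-708.

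Ucp2 was not called in any comparison. Control cells held 187 FPKM, and the inhibitor groups 163, 177 and 157 FPKM, so that all 3 inhibitor values lay below the control. The authors' deposited tables gave log2 fold changes of -0.20 (q = 0.806), -0.08 (q = 0.977) and -0.25 (q = 0.723). Among the 531 other tested genes within 1.5-fold of its control level, the smallest change called in the authors' deposited tables was 1.30-fold with miR-182 and 1.28-fold with each of the other 2 inhibitors. With miR-203 that gene was Ucp1 itself. The values of Ucp2 correspond to 1.147-fold, 1.06-fold and 1.19-fold lower, smaller than any change called at this level. Centred on the adipocyte markers, the log2 ratios of Ucp2 were -0.47, -0.31 and -0.45, and no call was made on that scale. The size of change that the authors' test could detect for Ucp2 was not tested, and a missing call does not show that its level was the same.

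Ucp3 was low and was not called either. Its values were 1.70 FPKM in the control, 2.12 FPKM with miR-182, 1.82 FPKM with miR-203 and 2.11 FPKM with miR-708. All 3 inhibitor values lay above the control, but the sign turned for miR-182 and miR-203 under other scalings of the libraries (-0.065 for miR-182 when centred on adipocyte markers, and -0.065 and -0.17 for miR-203 when scaled to equal totals and when centred on those markers). The authors' deposited tables gave log2 fold changes of 0.32 (q = 0.518), 0.09 (q = 0.946) and 0.31 (q = 0.386). The smallest change called among the tested genes near this level was 1.29-fold with miR-182, 1.33-fold with miR-203 and 1.32-fold with miR-708, and Ucp3 differed 1.24-fold, 1.07-fold and 1.24-fold.

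Because FPKM are per length, the 3 genes can be set beside each other within a group. In the control, Ucp1 and Ucp2 stood at nearly the same level, with a ratio of Ucp1 to Ucp2 of 1.09, and Ucp1 was 119-fold above Ucp3. With the miR-182 inhibitor Ucp2 was 2.41-fold above Ucp1. With miR-203 and miR-708 the ratio of Ucp1 to Ucp2 was 0.899 and 0.929. Ucp1 made up 51.8% of the summed FPKM of the 3 genes in the control and 29.1%, 47.1% and 47.8% under inhibition. The sum itself was 392 FPKM in control cells and 233, 337 and 305 FPKM under inhibition. How far the ratio varies between samples of a group is not known, and the length of the annotated Ucp2 transcript, which runs past its RefSeq end, enters its FPKM.

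The promoters of Ucp1 and Ucp2 are shown because both genes had like levels in the control and only Ucp1 was called, although the difference between the 2 genes was not tested. Each sequence runs from 250 bases before to 50 bases after the RefSeq start (GRCm38.p6, plus strand), at chr8:83290098-83290397 for Ucp1 and chr7:100493108-100493407 for Ucp2. Capitals mark matches on either strand to the core of the cAMP response element (TGACG) or its full form (TGACGTCA), to the unit bound by nuclear receptors such as Pparg (AGGTCA), to the TATA box (TATA), to the GC box (GGGCGG) or to the CCAAT box (CCAAT).
Ucp1: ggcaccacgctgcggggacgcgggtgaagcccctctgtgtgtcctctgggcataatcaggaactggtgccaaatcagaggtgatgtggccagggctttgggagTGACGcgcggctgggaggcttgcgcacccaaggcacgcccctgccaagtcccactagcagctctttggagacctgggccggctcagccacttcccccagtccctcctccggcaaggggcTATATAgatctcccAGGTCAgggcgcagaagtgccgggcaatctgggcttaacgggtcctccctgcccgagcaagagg
Ucp2: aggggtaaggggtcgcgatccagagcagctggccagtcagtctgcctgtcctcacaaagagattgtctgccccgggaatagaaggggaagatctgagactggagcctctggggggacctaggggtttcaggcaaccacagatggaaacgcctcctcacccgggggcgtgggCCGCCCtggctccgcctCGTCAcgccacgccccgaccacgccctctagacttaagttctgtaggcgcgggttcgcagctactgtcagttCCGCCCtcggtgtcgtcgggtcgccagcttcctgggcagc

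Ucp1 has a TATATA run, 2 overlapping matches to TATA, that begins 28 bases before its start. Ucp2 and Ucp3 have no TATA in this window, which 36.7% of 32851 promoters of the same length hold. All 3 genes have 1 match to TGACG, which 20.8% of promoters hold, and none has TGACGTCA (1.79% of promoters). AGGTCA occurs once in Ucp1, at 14 bases before the start, at 2 places in Ucp3 and not in Ucp2, and in 16.3% of promoters. GGGCGG occurs at 2 places in Ucp2 and in neither of the other genes, and in 35.7% of promoters. CCAAT (37.4% of promoters) is in none of the 3. The E box (CANNTG, not capitalised), which 72.3% of promoters hold, has no match in Ucp1, 2 in Ucp2 and 3 in Ucp3. The enhancers known to govern Ucp1 in brown fat lie farther upstream, outside this window.

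Of the listed genes near the uncoupling protein loci, none was called lower. Over all measured genes 6.72%, 2.61% and 3.24% were called lower, so with few neighbours measured this is not particular to them. Elmod2, at a distance of 14180 bases from Ucp1, had 25.7 FPKM in control cells and 26.4, 27.4 and 26.7 FPKM under inhibition, without a call. Tbc1d9, on the other side of Ucp1, lay at 0.501 FPKM or lower in every group and was tested by the authors only for miR-182, without a call. C2cd3, next to Ucp3, had 6.51 FPKM in control cells and between 6.24 and 7.40 FPKM under inhibition, without a call. In a wider list of 15 neighbours, 9, 8 and 8 were measured, and the authors' deposited tables called P4ha3 higher with miR-182 and miR-708 (0.746 FPKM in control cells, 1.29 and 1.30 FPKM) and Pgm2l1 higher with miR-182 (0.695 to 1.03 FPKM). That is 22.2% with miR-182 and 12.5% with miR-708, against 8.73% and 4.74% over all measured genes. Both genes were below 1 FPKM in the control and count as measured only through inhibitor groups where they were higher. These shares are therefore not read as a result about neighbours. Rnf150, below 1 FPKM in every group, was called higher with miR-182 and miR-203.

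Genes that are usually expressed together with Ucp1 divided. Over all measured genes, the authors' deposited tables called 8.73%, 4.79% and 4.74% higher and 6.72%, 2.61% and 3.24% lower. The counts of each list are to be read beside these shares. Of 17 measured members of a list of 20 thermogenic genes, the authors' deposited table for miR-182 called 6 lower (35.3%) and 3 higher (17.6%), and 8 were not called. Cidea, which promotes lipid storage in droplets, fell from 297 to 56.2 FPKM. Cox8b and Cox7a1, subunits of cytochrome c oxidase found in brown fat and muscle, fell from 658 to 367 FPKM and from 1414 to 870 FPKM. Acot2, a mitochondrial acyl-CoA thioesterase, fell 2.14-fold, Letmd1, a mitochondrial protein needed for Ucp1 expression in mouse brown fat, 1.40-fold and the potassium channel gene Kcnk3 1.29-fold. Ckb, a creatine kinase, rose 1.32-fold, Otop1, an otopetrin proton channel, 1.31-fold and Eva1b 1.63-fold. Elovl3, a fatty acid elongase of brown fat, had 286 FPKM in control cells and 281 FPKM with the miR-182 inhibitor (authors' deposited table, q = 0.993). The median log2 ratio of the 17 genes was -0.11.

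With miR-203 the authors' deposited table called 2 of the 17 genes lower (Cidea and Acot2) and 2 higher (Eva1b and Otop1), and with miR-708 it called 2 lower (Cidea and Acot2) and 1 higher (Otop1). The share called lower was 11.8% with each of these inhibitors, and the share called higher 11.8% and 5.88%. The list medians were 0.011 and 0.045. Several genes of the list followed the same order of groups as Ucp1, among them Cidea, Acot2, Cox8b, Letmd1 and Kcnk3. Cidea had 157 FPKM for miR-203, 146 FPKM for miR-708 and 56.2 FPKM for miR-182. Acot2 had 76.8 FPKM in control cells and 54.5, 49.2 and 36.0 FPKM for miR-203, miR-708 and miR-182. The fall of Cidea was larger than that of Ucp1 in each comparison, at 5.29-fold, 1.90-fold and 2.03-fold. That of Acot2 was larger with miR-203 (1.41-fold) and miR-708 (1.56-fold) and smaller with miR-182. The comparisons share their control.

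**Figure D3:**
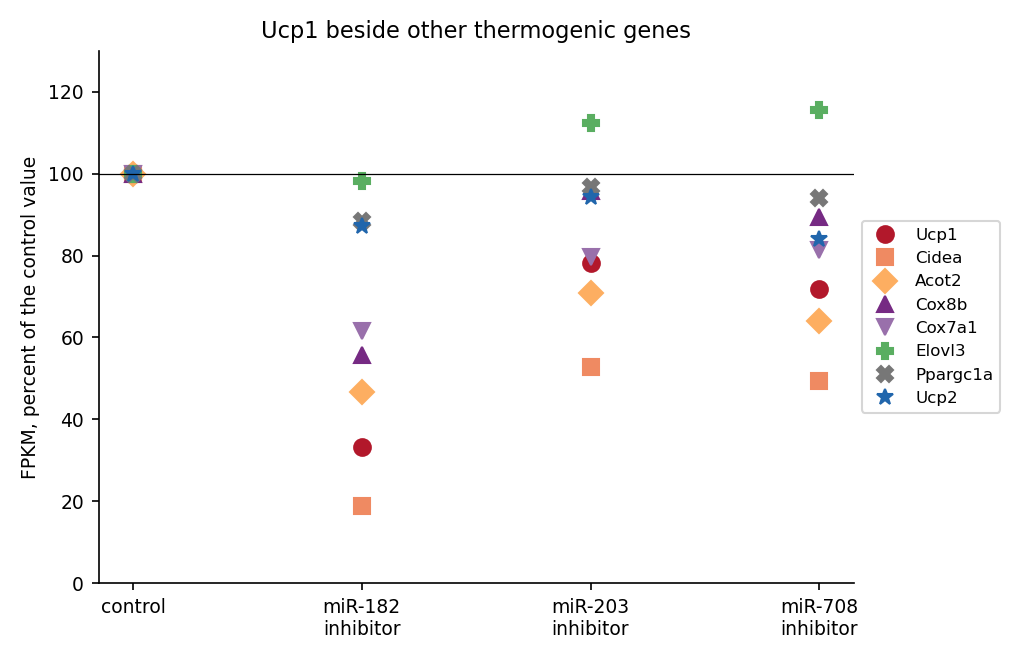
FPKM as a percentage of the control value (y axis, linear from 0) for Ucp1, Ucp2 and 6 genes picked from the thermogenic list in the 4 groups, 1 pooled value each and so no error bars. The 6 are Cidea, Acot2, Cox8b, Cox7a1, Elovl3 and Ppargc1a. Eva1b, Ckb and Otop1, the listed genes that rose with miR-182, are not shown. With the miR-182 inhibitor Ucp1 stood at 33.4% of the control and Ucp2 at 87.2%; with miR-203 and miR-708 Ucp1 stood at 78.1% and 71.8%.

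Transcription factors and cofactors that drive Ucp1 showed no common direction. Of 32 measured genes in a list of 34 reported activators, the authors' deposited table for miR-182 called 5 higher and 3 lower, that for miR-203 called 3 higher and none lower, and that for miR-708 called 1 higher and none lower. The shares called higher were 15.6%, 9.4% and 3.1%, against 8.73%, 4.79% and 4.74% over all measured genes. With miR-182, 9.4% were called lower, against 6.72%. In a list this short, these counts are not read as a result about activators. The medians were -0.0071, -0.024 and -0.069. With the miR-182 inhibitor Cebpb, an early factor of adipocyte differentiation that also acts on Ucp1, fell from 218 to 160 FPKM (authors' deposited table, q = 0.0333), and Fgf21, a hormone that induces Ucp1 in fat, fell from 33.9 to 20.9 FPKM. The nuclear receptor gene Nr4a1 fell from 3.06 to 2.28 FPKM. Cebpa rose from 243 to 343 FPKM, Rxra, a partner of Pparg, from 19.1 to 29.3 FPKM, Rxrg from 5.94 to 9.004 FPKM and Irf4 from 1.68 to 2.27 FPKM. Plac8, reported to act upstream of Cebpb in mouse brown fat, rose in each comparison, from 17.1 FPKM to 85.3, 46.9 and 47.7 FPKM. With miR-203, Cebpd (16.9 to 22.8 FPKM) and Rxrg (to 7.91 FPKM) also rose.

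Several well known regulators of Ucp1 were not called in any comparison. Ppargc1a, the cold-induced coactivator, had 23.9 FPKM in control cells and 21.1, 23.1 and 22.5 FPKM under inhibition. Its relative Ppargc1b had 40.6 FPKM in control cells and between 35.5 and 38.2 FPKM under inhibition. Ppara, a fatty acid receptor that acts on the Ucp1 enhancer, had 86.9 FPKM in control cells and 67.1, 73.4 and 64.4 FPKM, below the control in all 3 comparisons. Prdm16, which sets brown fat identity, had 5.40 FPKM in control cells and 7.26, 6.11 and 4.91 FPKM. Pparg lay between 130 and 140 FPKM in all groups. Dio2, the enzyme that activates thyroid hormone in brown fat, was near 1 FPKM in all groups, from 1.07 to 1.24 FPKM.

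Reported repressors of Ucp1 were called in few cases. Of 15 measured genes in a list of 19, the authors' deposited tables called 2 higher with miR-182 and 1 higher with each of the other inhibitors, and none lower. With lists this short, 13.3%, 6.67% and 6.67% are 1 gene or less away from the shares over all measured genes, so the counts say nothing particular of repressors. Nrip1, the corepressor RIP140, rose from 12.6 to 21.03 FPKM with the miR-182 inhibitor (authors' deposited table, q = 0.0341). The maintenance DNA methyltransferase gene Dnmt1 rose from 4.52 to 7.30, 6.06 and 6.24 FPKM. The list medians were 0.054, 0.068 and -0.0089.

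Genes of the signals and fuel for Ucp1 were called higher in few cases. Of 28 measured genes among 30 reported for adrenergic signalling and fatty acid supply, the authors' deposited tables called 4 higher with miR-182, 1 with miR-203 and 3 with miR-708. The shares were 14.3%, 3.57% and 10.7%, against 8.73%, 4.79% and 4.74% over all measured genes. In a list this short, these counts are not read as a result about signals and fuel. The medians were -0.00013, 0.021 and -0.013. Adrb3, the beta-adrenergic receptor of fat cells, rose from 38.0 to 55.3 FPKM with the miR-182 inhibitor and was not called with miR-203 (46.6 FPKM) or miR-708 (42.0 FPKM). Mgll, which completes lipolysis, rose in each, from 87.2 to 158, 128 and 118 FPKM. The phosphodiesterase gene Pde4b and the acyl-CoA synthetase gene Acsl5 rose with miR-182 (1.87-fold and 1.39-fold) and with miR-708 (1.54-fold and 1.34-fold). Pnpla2, the first lipase of the pathway, had 2413 FPKM in control cells and between 2331 and 2452 FPKM under inhibition and was not called. Lipe, hormone-sensitive lipase, had 667 FPKM in control cells and between 585 and 623 FPKM and was not called.

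A list of 12 mitochondrial carriers related to the uncoupling proteins was examined, not the whole Slc25 family. Of the 10 measured, the authors' deposited tables called 2 higher with miR-182 and none with miR-203 or miR-708, and none lower. With miR-182 that is 20%, against 8.73% over all measured genes. With 10 genes, these counts are not read as a result about carriers. The medians were 0.0017, 0.017 and 0.053. The dicarboxylate carrier Slc25a10 rose from 144 to 202.7 FPKM and Slc25a25, an ATP-magnesium/phosphate carrier, from 17.9 to 31.8 FPKM with the miR-182 inhibitor. Slc25a4 and Slc25a5, the ADP/ATP carriers that can also conduct protons, were not called. Slc25a4 had 413 FPKM in control cells and 349, 384 and 365 FPKM under inhibition, and Slc25a5 had 782 FPKM and 734, 742 and 798 FPKM. Below 1 FPKM and outside these counts, Slc25a27, the carrier also named Ucp4, was called lower with miR-203 in the authors' deposited table, from 0.634 to 0.262 FPKM (q = 0.00819).

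**Figure D4:**
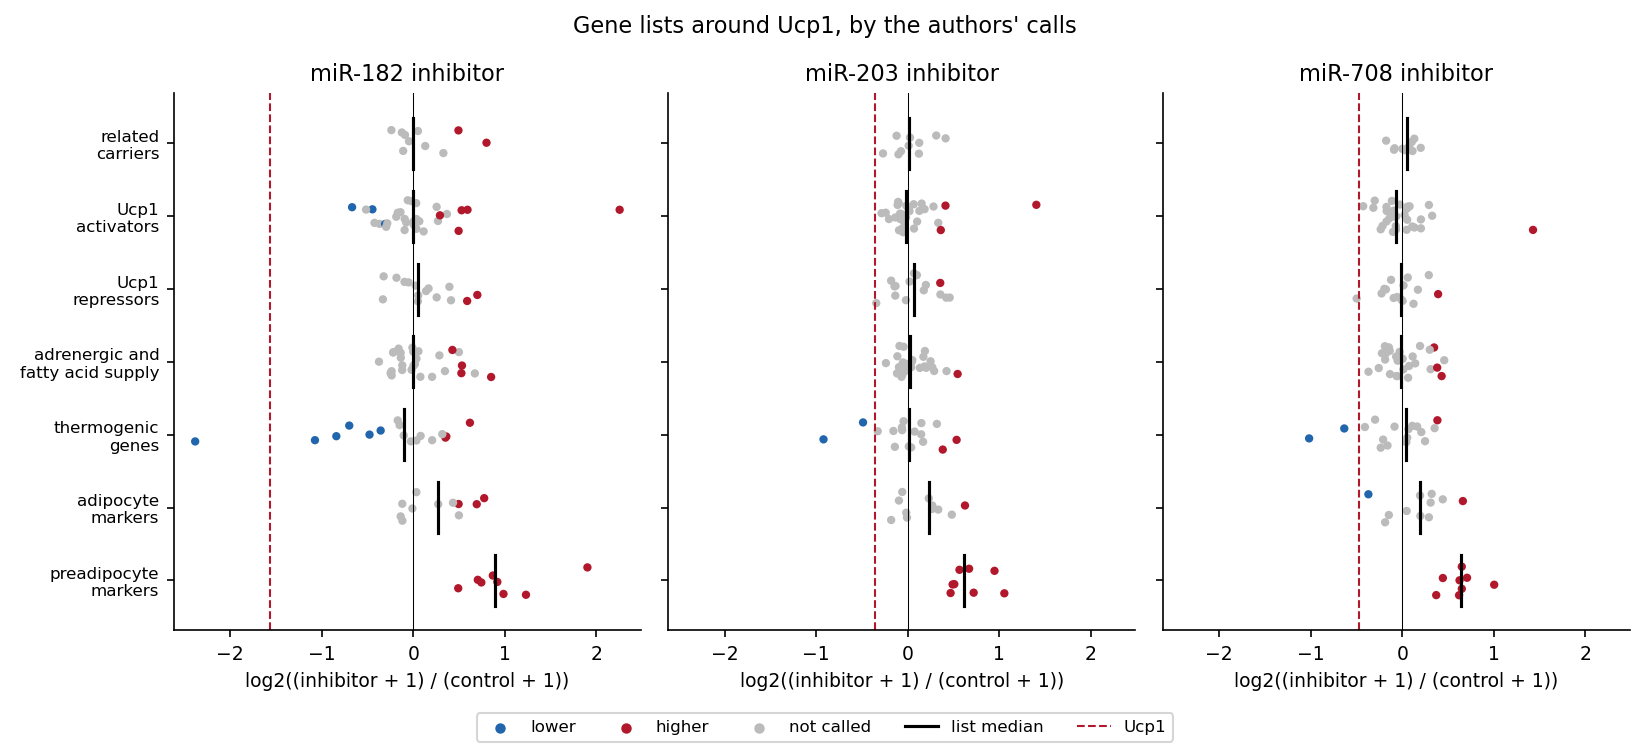
Each dot is a measured gene of a list, placed by log2((inhibitor + 1) / (control + 1)) on the x axis, in 1 panel per inhibitor, and coloured by the authors' call, with the list median as a black bar. The dashed line marks Ucp1, at -1.57, -0.35 and -0.48, and the thermogenic list holds Cidea to the left of it in every panel while the preadipocyte markers lie to the right of 0.

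Measured preadipocyte markers were higher than in the control in each comparison in which Ucp1 fell. Of 9 listed, 8 were measured and all 8 rose in each comparison. Over all measured genes 8.73%, 4.79% and 4.74% were called higher. Of the 9, 3 were below 1 FPKM in the control and 1 with each inhibitor. Some, Pi16 among them, thus count as measured only through the inhibitor groups where they were higher, so the count is not a test of the list. The list summed to 121 FPKM in control cells and 286, 212 and 202.5 FPKM under inhibition. The listed gene that was not measured, Dpp4, was not tested and went the other way. It had 0.112, 0.264 and 0.0267 FPKM under inhibition, while no listed gene was below 0.273 FPKM in the control. Ly6a, the Sca-1 antigen of precursors, rose from 29.2 to 112, 61.6 and 59.5 FPKM. Dlk1, an inhibitor of adipocyte differentiation, rose from 58.9 to 112, 97.7 and 93.1 FPKM, Wisp2 from 5.21 to 13.6, 10.97 and 9.14 FPKM and Pi16 from 0.562 to 2.09, 1.49 and 1.45 FPKM. Of 11 adipocyte markers, 3 rose (Cfd, Adipoq and Cebpa) and none fell with miR-182, 1 rose (Cfd) and none fell with miR-203, and 1 rose (Cfd) and 1 fell (Plin4) with miR-708. The shares of the 11 called higher were 27.3%, 9.09% and 9.09%, against 8.73%, 4.79% and 4.74% over all measured genes. With miR-708, 9.09% were called lower, against 3.24%. With 11 genes, these counts are not read as a result about adipocyte markers. The median log2 ratios of the adipocyte markers were 0.27, 0.23 and 0.20, and those of the preadipocyte markers 0.89, 0.62 and 0.64. Set against the geometric mean of these 11 markers, Ucp1 stood at 27.9%, 69.4% and 64.1% of its control value, and Ucp2 at 72.8%, 83.8% and 74.9%. The part of the precursor genes in the fall of Ucp1 was not tested.

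Macrophages express Ucp2 and skeletal muscle expresses Ucp3, so markers of both were examined. Of 11 macrophage and leukocyte markers 9 had a row, and their summed level was 10.5 FPKM in control cells and 5.65, 7.80 and 6.81 FPKM under inhibition, against 157 to 187 FPKM for Ucp2 alone. The authors' deposited tables called Lyz2 lower with miR-182 and Fcer1g lower with miR-203 among the 3 measured. The share called lower was 33.3% with miR-182 and with miR-203, and 0% with miR-708. Of 14 skeletal muscle markers 8 had a row, with a sum of 11.1 FPKM in control cells and 9.23, 10.3 and 10.3 FPKM under inhibition. Of the 3, 3 and 4 measured muscle markers, Des fell in each comparison and Myl1 rose with miR-203 and miR-708. The shares called lower were 33.3%, 33.3% and 25%, and those called higher 0%, 33.3% and 25%. Neither the macrophage nor the muscle list was tested for a part in the values of Ucp2 or Ucp3. Endothelial markers (9 genes) summed to between 23.4 and 32.1 FPKM, nearly all of it Egfl7, which was not called. Below 1 FPKM, Cdh5 was called higher with miR-182 (0.334 to 0.627 FPKM) and Pecam1 with miR-708 (0.318 to 0.839 FPKM). Smooth muscle and pericyte markers (9 genes, 6 of them measured) summed to between 45.1 and 48.2 FPKM, but single members moved where Ucp1 fell. In each comparison 33.3% of the 6 were called lower and 16.7% higher. Des stands in the skeletal muscle list as well. Mylk, a myosin kinase, rose from 1.30 to 3.17, 2.24 and 2.42 FPKM, Cspg4, the NG2 proteoglycan of pericytes, fell from 11.2 to 6.66, 8.41 and 6.98 FPKM, and Des fell from 5.89 to 2.76, 2.82 and 3.21 FPKM. Myh11, below 1 FPKM, was called higher with miR-182 (0.267 to 0.455 FPKM). The part of these genes in the values of Ucp1 was not tested. Over all measured genes 6.72%, 2.61% and 3.24% were called lower and 8.73%, 4.79% and 4.74% higher. With so few genes measured in each of these lists, the calls are not read as results about a cell type.

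The genes nearest in pattern were listed for each uncoupling protein gene. Likeness was measured as the Euclidean distance between the 3 log2 ratios of 2 genes, over 6747 genes (6748 for Ucp3) with a test in each table and a control value of 10 FPKM or more, and the 3 ratios share 1 control. Few genes have ratios as far from 0 as Ucp1, so distances are not compared between the 3 genes. The nearest to Ucp1 was Gadd45a, a stress-induced growth arrest gene, at a distance of 0.235, which had 53.6 FPKM in control cells and 17.6, 35.9 and 35.7 FPKM under inhibition and was called lower in all 3. Next came Gm23264 (0.270), Gm24081 (0.345), Ppp1r15a, a stress-induced phosphatase subunit (0.348), and 6030408B16Rik (0.351). Of these 4, the authors' deposited tables called only 6030408B16Rik, lower in each comparison, from 50.5 FPKM to 18.4, 35.02 and 29.8 FPKM. Ppp1r15a had 116 FPKM in control cells and 40.4, 75.9 and 71.1 FPKM under inhibition without a call (q = 0.103, 0.691 and 0.615 in the authors' deposited tables). For Ucp2 the nearest genes were Josd2, Ulk2, Usp24, Pprc1 and Samd8, at distances of 0.014 to 0.031, and for Ucp3 they were Ppp1r10, Ube3a, Ubac1, Uqcrh and Bola2, at 0.028 to 0.035. None of these 10 was called.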

How the data were processed

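Messenger RNA of 8 samples in 4 groups was sequenced. Per the submitters' processing notes, TopHat2 version 2.0.9 and Cuffdiff version 2.1.1 were used with mm10. For the annotation, options, scaling between libraries and use of strand, no source used here gives a statement. What the authors deposited are FPKM, 1 value per group, in 3 tables, with their log2 fold change per gene and its p-value and q-value. Per the file headers, each table compares 1 inhibitor with the control. Genes whose p and q were both exactly 1 count as untested, leaving 14391 genes for miR-182, 14371 for miR-203 and 14316 for miR-708. Calls are the authors', at q below 0.05 over all tested genes, and the smallest q was 0.00176. Depth per sample is unknown, and the pooled values allow no interval.

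From the deposited FPKM, log2((inhibitor + 1) / (control + 1)), ranks, list counts and medians were computed (Python 3.11.15, pandas 2.3.3). The log2 ratio, the search for the nearest genes and the Benjamini-Hochberg adjustment were tested on simulated data. Ranks, list counts and medians were not. Measured genes were tested and had 1 FPKM or more in either group. Promoter and microRNA sequences are from RefSeq, and gene models and untranslated regions from GENCODE M21, the same build as mm10. For each gene the RefSeq-matched transcript with the longest coding sequence was used.

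The genes and lists were chosen with earlier results of these data known, and Cidea was taken out of the repressor list, and a duplicate macrophage alias dropped, after the lists were first written. By the rule, the text names Ucp1, Ucp2 and Ucp3, 12 regulators, carriers and lipases, the called genes of each list (the 4 with the largest change where over 6 were called), the flanking genes and the 5 genes nearest in pattern. The other called activators and thermogenic genes, Elovl3, Egfl7 and Fabp4 were named after their values were seen. The list for adrenergic signalling and fatty acid supply leaves out 1 gene, whose result is not reported here, so its counts and medians do not cover it.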

Additional observations from a re-analysis of the deposited data

How the results depend on the processing

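The alternatives tried included pseudocounts of 0.1 and none, and FPKM rescaled to equal totals or to the upper quartile. Centring on the median of measured genes or of the adipocyte markers was also tried. The last were a q threshold of 0.01 and Benjamini-Hochberg adjustment within each table. The direction of Ucp1 and Ucp2 was the same in all 3 comparisons under each rescaling and centring. A pseudocount, a threshold or an adjustment cannot turn a direction, so these do not bear on it. The log2 ratio of Ucp1 ranged from -1.84 to -1.54 with miR-182, -0.58 to -0.33 with miR-203 and -0.67 to -0.44 with miR-708. That of Ucp2 ranged from -0.47 to -0.17, -0.31 to -0.062 and -0.45 to -0.22. At q below 0.01 Ucp1 with miR-203 (-0.35) was no longer called. The authors' p of 0.0001 has the same q of 0.00327 in all 3 comparisons, so their q-values appear adjusted over the comparisons together. Benjamini-Hochberg adjustment within each comparison gave Ucp1 with miR-203 a q of 0.0408. It called 2687 genes with miR-182 instead of 2105. Ucp3 turned to -0.065 with miR-182 when centred on adipocyte markers, and with miR-203 to -0.065 at equal totals and -0.17 centred on those markers. The scaling to equal totals moved the median of measured genes by -0.040, -0.18 and -0.13, and the adipocyte centring by -0.27, -0.23 and -0.20, and both alternatives shift the other genes too. At q below 0.01 the count of calls fell from 1039 to 613 with miR-203 and from 1082 to 683 with miR-708. The calls were not recomputed under a new scaling. No paired analysis was possible because the files hold 1 pooled value per group, and for the same reason no replicate could be left out. Unknown depth limits what Ucp2 and Ucp3 can show.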
